A study of Mus musculus with 24 samples.

Results

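The genes described here encode the subunits of heterotrimeric G proteins, the phospholipases C and the regulators of G protein signalling (RGS) that MIN6 cells transcribed, with and without verapamil. They are all genes of the count table whose symbol starts with Gna, with Gnb and a digit, with Gng and a digit, with Plcb, Plcd, Plce, Plcg or Plcl and a digit, or with Rgs and a digit, which gave 40 of 12310 genes. Of these, 10 are Gα genes, 4 Gβ genes, 5 Gγ genes, 7 phospholipase C genes and 11 RGS genes. The other 3 (Gnb1l, Rgs7bp and Gng5-ps) match by symbol only. All 40 had a mean of at least 1 CPM (the count scaled to library size by TMM and to a fixed library total), and all passed the filter on low counts and were tested.

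MIN6 is an insulin-secreting mouse β-cell line, wild type in genotype per the labels, and verapamil blocks L-type calcium channels. RNA was sequenced from 12 libraries of cells given verapamil (50 µM; 24 h) and from 12 libraries of untreated cells (control), all kept at 5.6 mM glucose. The comparison asks how the treatment alters the transcriptome of the β-cell. The libraries fall into 4 experiment sets of 3 verapamil and 3 control libraries each. A cell line of tumour origin stands in for the β-cell here, and no source used here says that the libraries of a set came from separate cultures.

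Heterotrimeric G proteins couple hormone and neurotransmitter receptors to enzymes inside the cell: an activated receptor loads the Gα subunit with GTP, and Gα and the Gβγ dimer then act on their own targets. In the β-cell, Gs raises cAMP and amplifies insulin secretion (the route of GLP-1), Gi, Go and Gz restrain it (the route of adrenaline and somatostatin), and Gq and G11 activate phospholipase Cβ, which cleaves the membrane lipid PIP2 into IP3, a releaser of calcium from the endoplasmic reticulum, and diacylglycerol, an activator of protein kinase C. RGS proteins speed up GTP hydrolysis by Gα and so end the signal.

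Total counts were 21840159 to 44806556 per verapamil library and 12590476 to 32360171 per control library. Of 10 β-cell markers, 9 were in the table (among them Ins1, Ins2, Pdx1 and Mafa), with a summed level of 2906 to 3729 CPM in verapamil libraries and 3284 to 4345 CPM in control libraries. Of 4 α-cell markers only Gcg was in the table, at 176 to 333 CPM in verapamil libraries against 174 to 198 CPM in control libraries. None of the listed delta-cell, fibroblast, endothelial or immune markers was in the table, and the part of other cell types in the results was not tested. In 9 of the 12 verapamil libraries the level of a gene, relative to the mean of the control libraries, followed its transcript GC content or length more closely than in any control library. This trend runs with the treatment, so calls of the 40 genes that were lost or turned are also given with the trend removed, with the GC and length slopes of each library as covariates, and with the 3 verapamil libraries that lie within the control range. These 3 libraries belong to sets 1 and 4. The last fit therefore also leaves out every verapamil library of sets 2 and 3, and it cannot tell the trend from the set.

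Of the 40 genes, 14 rose and 15 fell in verapamil-treated cells (edgeR quasi-likelihood test, adjusted p under 0.05 over all genes tested), and 11 missed the threshold. Over all 12306 genes tested, 31.2% rose and 31.6% fell, so these shares lie near and a little above the background and say nothing particular to the family. The median log2 fold change was 0.0060 over the 40 genes and -0.0033 over all genes. Gene by gene the changes were unequal. The largest increases were those of Rgs10 (0.81) and Rgs19 (0.71), and the largest decreases those of Rgs22 (-1.28), Plcb4 (-1.10) and Plcb1 (-0.96). In 3 genes (Gnas, Rgs9 and Rgs19) the 12 verapamil libraries were each above the highest control, which held for 4.95% of all genes, and in 2 (Plcb3 and Plcb4) all lay below, which held for 5.18%. In bulk RNA, fewer cells that transcribe a gene and less of its RNA per cell cannot be told apart.

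**Figure D1:**
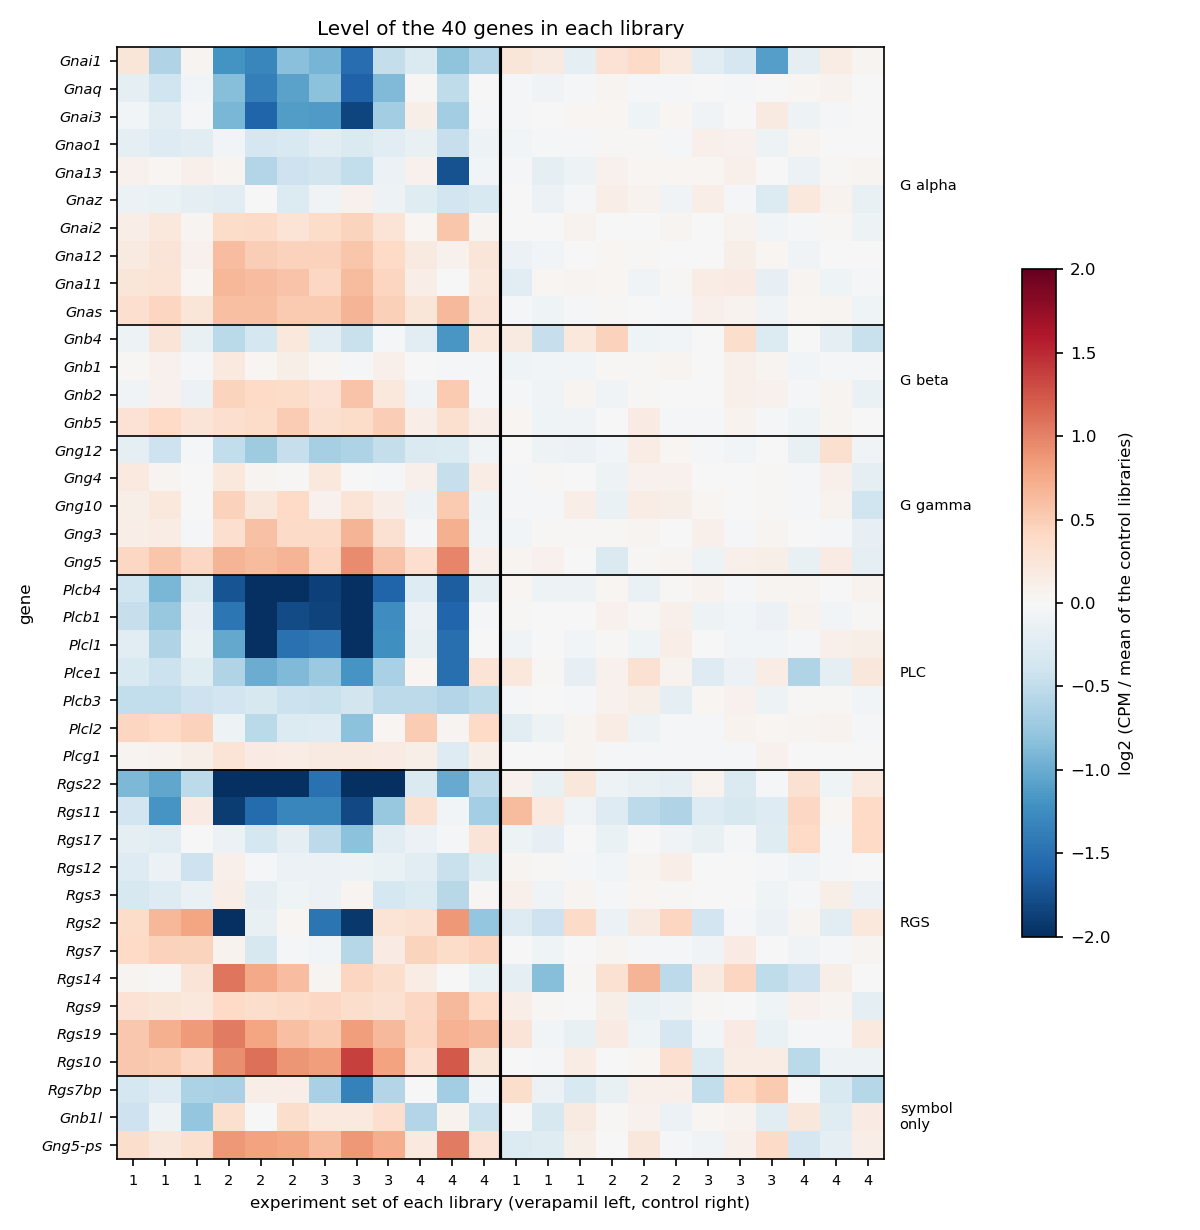
Level of each of the 40 genes (rows, grouped by family) in each of the 24 libraries (columns, verapamil on the left and control on the right, numbered by experiment set), as log2 of the CPM over the mean of the control libraries with 0.1 CPM added. Blue in Plcb4, Plcb1, Plcl1 and Rgs22 is deepest in verapamil libraries of sets 2 and 3, while the red of Rgs19 and the pale blue of Plcb3 run across all 4 sets.

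Among the 10 Gα genes, 4 rose, 5 fell and 1 (Gna13) missed the threshold. Gnas, which encodes Gαs, the activator of adenylyl cyclase, was the most abundant of the family per length of exon and lies at chr2:174284320-174346744 on GRCm38. Its lowest, median and highest levels were 16056, 19158 and 21808 CPM in verapamil libraries, against 12752, 13521 and 14530.0 CPM in control libraries. No verapamil library overlapped the control libraries, and the level rose 1.39-fold (log2 fold change 0.47, SE 0.051, adjusted p = 5.01e-08). Per kilobase of exon, the scale on which genes are compared here, it stood at 1682 ± 185 CPM per kb in verapamil libraries and 1212 ± 51.2 CPM per kb in control libraries (SD, n = 12 each). Its share of the summed Gα level per kilobase was 71.1% to 74.9% in verapamil libraries, against 66.8% to 69.4% in control libraries. The locus makes several transcripts from alternative promoters, which the counts pool, and its exons overlap those of Nespas, an antisense gene. Gnas also rose within the 3 verapamil libraries inside the control range, at 0.24 (adjusted p = 0.000283).

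The Gα genes of the inhibitory class went in both directions. Gnai2, which encodes an inhibitor of adenylyl cyclase and ranked next after Gnas per length (436 ± 50.7 CPM per kb in verapamil libraries and 361 ± 11.7 CPM per kb in control libraries), rose by 0.27 on the log2 scale (SE 0.051, adjusted p = 8.65e-05), and 9 of 12 verapamil libraries exceeded the highest control. This call was lost with the trend removed, at -0.057 (adjusted p = 0.187), with the slopes, at 0.048 (adjusted p = 0.269), and within the 3 libraries, at 0.048 (adjusted p = 0.334). Its close relative Gnai3 fell, with levels of 39.4, 87.0 and 151 CPM in verapamil libraries, against 131, 139.9 and 159 CPM in control libraries (log2 fold change -0.56, SE 0.17, adjusted p = 0.00747). In 8 of 12 verapamil libraries Gnai3 lay below every control, and the other 4 overlapped the controls. Gnai3 did not pass the test without experiment set 2 (-0.40, adjusted p = 0.0854) or set 3 (-0.39, adjusted p = 0.0729). Nor did it pass with the trend removed, at -0.083 (adjusted p = 0.27), or within the 3 libraries, at 0.010 (adjusted p = 0.896), and with the slopes its sign turned and it was called higher, at 0.12 (adjusted p = 0.0254). Gnai1, a scarce transcript of the same subfamily, had 1.17, 2.15 and 4.25 CPM in verapamil libraries, against 1.61, 3.82 and 4.65 CPM in control libraries, and it fell (log2 fold change -0.61, SE 0.18, adjusted p = 0.00595). The Gnai1 ranges overlapped widely, counts per library were 20 to 167, and the call was lost without set 2 (-0.37, adjusted p = 0.153). The Gnai1 call was also lost with the trend removed, at -0.18 (adjusted p = 0.278), with the slopes, at -0.068 (adjusted p = 0.814), and within the 3 libraries, at -0.26 (adjusted p = 0.381).

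Gnao1 encodes Gαo, which restrains insulin secretion in mouse β-cells. It had 364, 426 and 479 CPM in verapamil libraries, against 464, 497 and 533 CPM in control libraries, and 10 of 12 verapamil libraries lay below every control (log2 fold change -0.23, SE 0.039, adjusted p = 2.59e-05). The decrease was small, and it passed the test in each fit run beside the main one except within set 4 alone. Gnaz, which encodes Gαz, another inhibitor of adenylyl cyclase, also fell slightly (-0.16, adjusted p = 0.0171), a call that was lost without set 2 (-0.15, adjusted p = 0.0923) and without set 4 (-0.096, adjusted p = 0.154).

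The pair that activates phospholipase Cβ moved apart. Gnaq, at chr19:16132831-16387463, had 106, 207 and 329 CPM in verapamil libraries, against 308, 324 and 343 CPM in control libraries, and it fell (log2 fold change -0.56, SE 0.14, adjusted p = 0.00206). In 9 of 12 verapamil libraries it was below every control, and the spread among verapamil libraries (SD 78.0 CPM) far exceeded that among controls (SD 9.22 CPM). Gna11, which shares that role, had 38.0, 48.5 and 60.8 CPM in verapamil libraries, against 32.9, 39.0 and 42.8 CPM in control libraries, and it rose (log2 fold change 0.37, SE 0.076, adjusted p = 0.000224), and 9 of 12 verapamil libraries exceeded the highest control. Per kilobase Gnaq stayed the more abundant of both, at 35.8 ± 12.6 CPM per kb in verapamil libraries and 52.6 ± 1.49 CPM per kb in control libraries, beside 12.1 ± 1.98 CPM per kb in verapamil libraries and 9.32 ± 0.744 CPM per kb in control libraries for Gna11 (SD, n = 12 each). With the slopes the Gnaq value was 0.0040 (adjusted p = 0.959), whereas Gna11 stayed higher, at 0.18 (adjusted p = 0.0129). In the 3 verapamil libraries within the control range neither passed the test, at -0.024 (adjusted p = 0.595) for Gnaq and 0.12 (adjusted p = 0.208) for Gna11.

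Gna12 and Gna13 encode the Gα subunits of a class of their own, apart from those above. Gna12 had 139, 165 and 200.5 CPM in verapamil libraries, against 121, 131 and 143 CPM in control libraries, and it rose (log2 fold change 0.35, SE 0.057, adjusted p = 2e-05). Only 2 verapamil libraries of Gna12 reached into the control range. Gna12 stayed higher at a smaller size with the trend removed, at 0.15 (adjusted p = 0.000863), and with the slopes, at 0.19 (adjusted p = 0.000444). Within the 3 libraries its value was 0.17 (adjusted p = 0.00412). Gna13 had 8.09, 25.8 and 29.1 CPM in verapamil libraries, against 24.0, 27.8 and 29.1 CPM in control libraries and did not pass the test (-0.21, adjusted p = 0.158). A single verapamil library of set 4 held its lowest value. The Gna13 value was -0.32 (adjusted p = 0.0397) with the trend removed and 0.24 (adjusted p = 0.00846) with the slopes, so these fits called it in opposite directions.

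**Figure D2:**
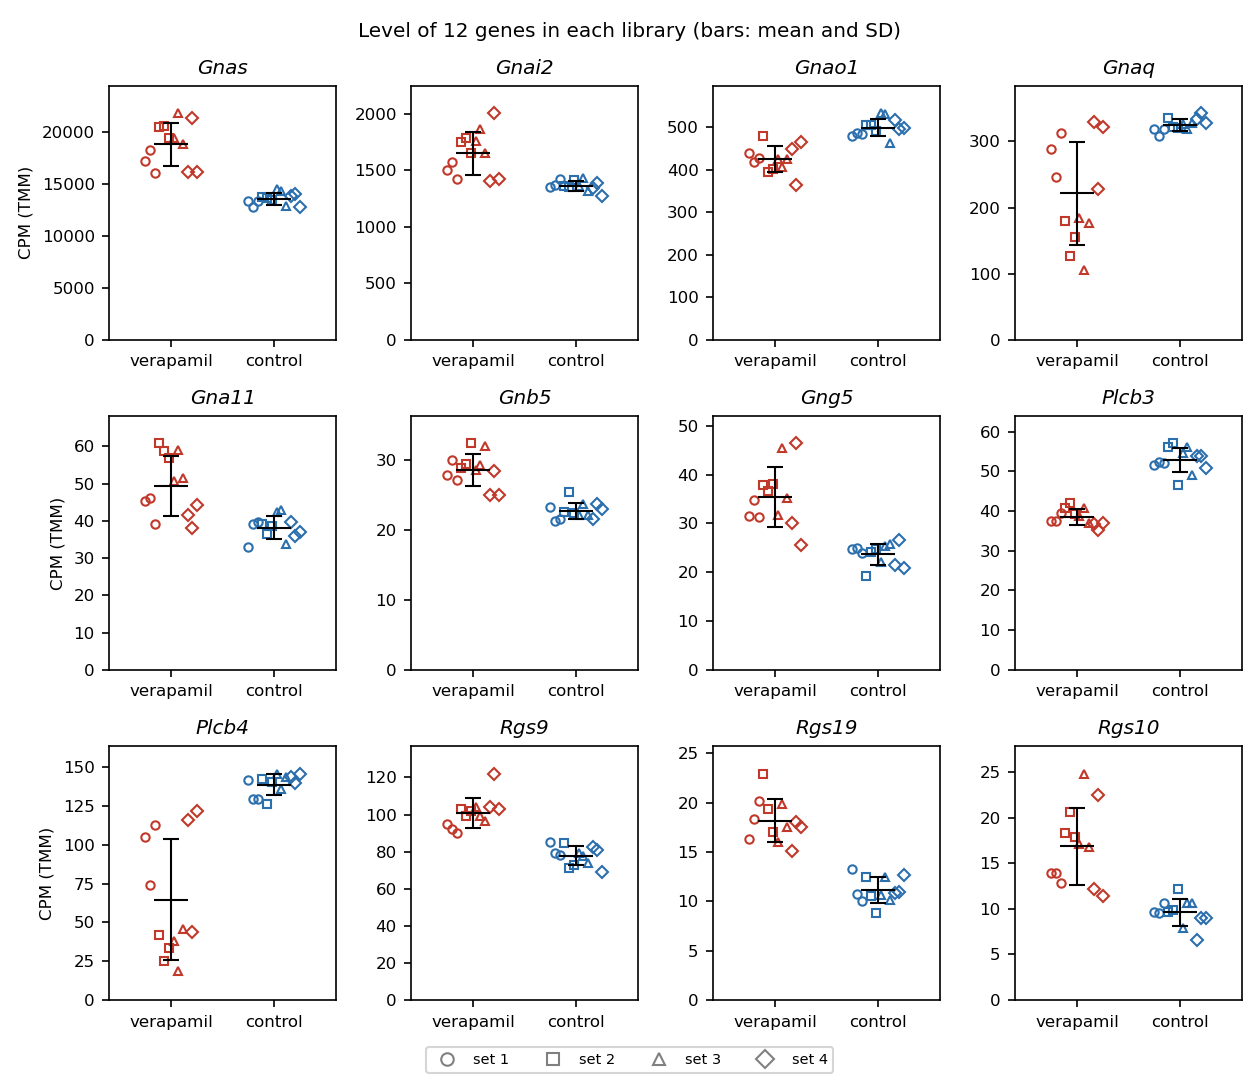
Level of 12 of the genes in CPM (TMM-normalized, linear axes from 0) in each verapamil library (red, left) and control library (blue, right), with symbols for the 4 experiment sets and bars for the mean and SD. Verapamil libraries of Gnas, Rgs9 and Rgs19 all lie above the controls and those of Plcb3 and Plcb4 all below, with a wide spread among verapamil libraries for Plcb4 and Gnaq.

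Of the 4 Gβ genes, 2 rose and none fell. Gnb2, a partner of most Gγ subunits, was the most abundant per length (955 ± 164 CPM per kb in verapamil libraries and 812 ± 39.1 CPM per kb in control libraries). Its share of the summed Gβ level per kilobase was 81.0% to 87.3% in verapamil libraries, against 81.1% to 83.1% in control libraries. It had 2535, 3277 and 4082 CPM in verapamil libraries, against 2531, 2772 and 2965 CPM in control libraries, and it rose slightly (log2 fold change 0.23, SE 0.073, adjusted p = 0.00777), and 7 of 12 verapamil libraries exceeded the highest control. This call was lost without set 2 (0.16, adjusted p = 0.137), without set 3 (0.21, adjusted p = 0.053) and within the 3 verapamil libraries in the control range, at -0.088 (adjusted p = 0.149), where the sign turned. The sign also turned, with a call, with the trend removed, at -0.16 (adjusted p = 0.000174), and with the slopes, at -0.12 (adjusted p = 0.0291). Gnb1, the second in abundance, had 699, 733 and 825 CPM in verapamil libraries, against 681, 716 and 770.2 CPM in control libraries and did not pass the test (0.041, adjusted p = 0.279), except with the trend removed, at 0.14 (adjusted p = 0.00261). Gnb4 did not pass either, at a median of 5.31 CPM in verapamil libraries and 5.88 CPM in control libraries (-0.17, adjusted p = 0.287).

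Gnb5 is the atypical Gβ that pairs with the R7 class of RGS proteins rather than with Gγ. Its levels were 24.9, 28.6 and 32.3 CPM in verapamil libraries, against 21.3, 22.5 and 25.3 CPM in control libraries, with 10 of 12 verapamil libraries above every control, and it rose (log2 fold change 0.33, SE 0.046, adjusted p = 2.14e-06). The call was lost with the trend removed, at 0.096 (adjusted p = 0.0838), and the value with the slopes was 0.24 (adjusted p = 0.00105).

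Gγ subunits are small lipid-modified proteins that hold the Gβγ dimer at the membrane, and of the 5 genes 3 rose, 1 fell and 1 missed the threshold. Gng3, the most abundant per length, had 203, 267 and 349.8 CPM in verapamil libraries, against 190.4, 216 and 228 CPM in control libraries, and it rose (log2 fold change 0.32, SE 0.078, adjusted p = 0.00124). Its share of the summed Gγ level per kilobase was 70.0% to 76.4% in verapamil libraries, against 69.3% to 73.5% in control libraries. In 9 of 12 verapamil libraries it lay above every control, but the call was lost with the trend removed, at -0.0099 (adjusted p = 0.812), with the slopes, at -0.069 (adjusted p = 0.099), and within the 3 libraries, at -0.041 (adjusted p = 0.489). Gng10 rose slightly (0.20, adjusted p = 0.0207), a call lost without set 2 (0.16, adjusted p = 0.146) and without set 3 (0.21, adjusted p = 0.0756), as well as with the slopes, at -0.031 (adjusted p = 0.791), and within the 3 libraries, at -0.078 (adjusted p = 0.519). Its exons share 946 bases with a neighbouring gene on the same strand, so its counts are uncertain. Gng12 fell, with 7.30, 8.86 and 11.7 CPM in verapamil libraries, against 10.8, 11.7 and 15.0 CPM in control libraries (log2 fold change -0.38, SE 0.078, adjusted p = 0.000244), and 10 of 12 verapamil libraries lay below every control. The Gng12 call was lost with the slopes, at -0.17 (adjusted p = 0.107), and within the 3 libraries, at -0.13 (adjusted p = 0.301). Gng4 did not pass the test, at 41.8, 60.3 and 66.8 CPM in verapamil libraries, against 50.4, 58.3 and 62.0 CPM in control libraries (0.050, adjusted p = 0.464), except with the slopes, at 0.14 (adjusted p = 0.0284).

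Gng5 showed the largest increase of the Gγ genes. It had 25.5, 35.0 and 46.4 CPM in verapamil libraries, against 19.3, 24.4 and 26.5 CPM in control libraries, so 11 of 12 verapamil libraries were above every control (log2 fold change 0.58, SE 0.081, adjusted p = 2.13e-06). The processed pseudogene Gng5-ps, at chr16:22295027-22295231, had 10.1, 14.1 and 18.0 CPM in verapamil libraries, against 6.88, 8.63 and 11.5 CPM in control libraries and rose in parallel (log2 fold change 0.63, SE 0.10, adjusted p = 2.31e-05). Both sequences are shown because reads of the pseudogene can hardly be told from Gng5 reads of the same stretch. Over the 205 bases of the pseudogene, 202 are identical to bases 134 to 338 of the Gng5 transcript (98.5%), which begin at its first coding base. That transcript has 593 bases, and those outside this stretch have no counterpart in the pseudogene. Letters are GENCODE transcript bases, 5′ to 3′, with the 3 differing bases in capitals.
Gng5: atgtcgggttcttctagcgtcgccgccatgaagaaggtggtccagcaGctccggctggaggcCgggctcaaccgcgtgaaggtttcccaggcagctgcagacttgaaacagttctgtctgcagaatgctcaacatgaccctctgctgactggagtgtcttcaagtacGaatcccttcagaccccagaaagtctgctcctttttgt
Gng5-ps: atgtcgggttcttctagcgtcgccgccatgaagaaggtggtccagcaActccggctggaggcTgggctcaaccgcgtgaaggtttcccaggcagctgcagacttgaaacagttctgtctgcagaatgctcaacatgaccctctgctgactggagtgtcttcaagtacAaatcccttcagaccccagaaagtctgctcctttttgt
The split of reads between these genes is therefore uncertain. Their summed level, which depends less on it, was 36.2, 47.6 and 64.4 CPM in verapamil libraries and 28.0, 32.9 and 37.2 CPM in control libraries (lowest, median and highest). Its ranges overlapped at the edge. With the trend removed Gng5 stayed higher, at 0.14 (adjusted p = 0.0385), and Gng5-ps did not, at -0.055 (adjusted p = 0.644). The pseudogene's call was also lost with the slopes, at 0.24 (adjusted p = 0.0622), and within the 3 libraries, at 0.27 (adjusted p = 0.0815).

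Of the 7 phospholipase C genes, 5 fell, 1 rose and 1 missed the threshold, with a median log2 fold change of -0.55. The median was -0.41 with the trend removed, 0.060 with the slopes and -0.11 within the 3 verapamil libraries in the control range, and the last 2 fits each called 2 of the 7 higher and 2 lower. The summed level of the family per kilobase was 50.0 to 80.7 CPM per kb in verapamil libraries, against 77.8 to 82.4 CPM per kb in control libraries.

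The 3 phospholipase Cβ genes of the table (Plcb1, Plcb3 and Plcb4), whose enzymes Gαq activates, all fell. Plcb3 had 35.2, 38.1 and 42.1 CPM in verapamil libraries, against 46.5, 53.0 and 57.0 CPM in control libraries. The groups did not overlap, and the verapamil libraries were as tightly spread as the controls (log2 fold change -0.46, SE 0.040, adjusted p = 1.51e-09). Plcb3 kept its decrease with the trend removed, at -0.57 (adjusted p = 1.04e-11), with the slopes, at -0.50 (adjusted p = 1e-09), and within the 3 verapamil libraries in the control range, at -0.49 (adjusted p = 1.76e-06).

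Plcb4 had the larger change and the wider spread, at 18.8, 44.9 and 122 CPM in verapamil libraries, against 126, 141 and 146 CPM in control libraries. All verapamil libraries were below every control, although 2 of set 4 and 2 of set 1 came close to them (log2 fold change -1.10, SE 0.25, adjusted p = 0.000545). Plcb4 remained lower in each of these fits, but at a smaller size, at -0.78 (adjusted p = 0.000119) with the trend removed, -0.16 (adjusted p = 0.0109) with the slopes and -0.25 (adjusted p = 0.00014) within the 3 libraries. Plcb1, its neighbour on chromosome 2 (chr2:134786067-135475258, with Plcb4 at chr2:135659011-136014593), had 11.6, 23.7 and 58.5 CPM in verapamil libraries, against 55.6, 60.4 and 64.8 CPM in control libraries, and it fell (log2 fold change -0.96, SE 0.23, adjusted p = 0.000983). In 10 of 12 verapamil libraries Plcb1 was below every control, and it did not pass the test with the slopes, at -0.064 (adjusted p = 0.465), nor within the 3 libraries, at -0.11 (adjusted p = 0.109).

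Of the other phospholipases C, Plcl1 encodes a catalytically inactive relative that binds IP3. It had 15.4, 41.4 and 89.3 CPM in verapamil libraries, against 84.8, 88.3 and 98.5 CPM in control libraries, and it fell (log2 fold change -0.84, SE 0.22, adjusted p = 0.00221), with 11 of 12 verapamil libraries below every control, but the call was lost with the slopes, at 0.060 (adjusted p = 0.487), and within the 3 libraries, at -0.11 (adjusted p = 0.128). Its paralog Plcl2 had 24.6, 44.9 and 61.7 CPM in verapamil libraries, against 37.5, 43.9 and 48.3 CPM in control libraries and did not pass the test (0.081, adjusted p = 0.567): 5 verapamil libraries lay above and 4 below every control. Plcl2 was called higher with the slopes, at 0.55 (adjusted p = 4.29e-09), and within the 3 libraries, at 0.45 (adjusted p = 4.06e-06). Plce1, which Ras-family GTPases activate, was at the edge of detection, with 0.518, 1.04 and 2.03 CPM in verapamil libraries, against 1.06, 1.72 and 2.08 CPM in control libraries and 13 to 69 counts per library. It fell (log2 fold change -0.55, SE 0.17, adjusted p = 0.00765), a call lost without set 2 (-0.40, adjusted p = 0.125) and without set 3 (-0.48, adjusted p = 0.0579). With the slopes the Plce1 value was 0.065 (adjusted p = 0.828), and within the 3 libraries it was 0.021 (adjusted p = 0.952).

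Plcg1, the isoform that receptor tyrosine kinases activate, was the most abundant phospholipase C per length and the one that rose. It had 209.6, 275 and 303 CPM in verapamil libraries, against 244, 249 and 265 CPM in control libraries, and the increase was small (log2 fold change 0.12, SE 0.041, adjusted p = 0.0179). Without set 2 it did not pass (0.075, adjusted p = 0.212), nor without set 3 (0.092, adjusted p = 0.137) or with the trend removed, at 0.053 (adjusted p = 0.0889). Its share of the summed phospholipase C level per kilobase was 42.7% to 70.6% in verapamil libraries, against 37.9% to 41.3% in control libraries, while that of Plcb4 was 4.10% to 16.8% in verapamil libraries, against 18.0% to 20.3% in control libraries. These shares do not overlap between the groups, and they rest largely on the decrease of Plcb4, Plcb1 and Plcl1. They were computed from levels with the trend left in, and the calls of Plcb1 and Plcl1 were lost with the slopes.

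The start regions of Plcb3 and Plcb4 are shown because all verapamil libraries lay below every control in these genes. RefSeq promoters on GRCm38.p6 (250 bases before to 50 after the start) were found for 32 of the 40 genes, 42 windows in all, and each is written 5′ to 3′ on the strand of the gene. Capitals mark the GC box, GGGCGG or its reverse complement, the motif of SP-family factors. Plcb3 (chr19:6969765-6970064, minus strand) held 6 of them and the CpG-rich start of Plcb4 (chr2:135659297-135659596, plus strand) held 7, 2 pairs of which overlap. The other Plcb4 window held none.
Plcb3: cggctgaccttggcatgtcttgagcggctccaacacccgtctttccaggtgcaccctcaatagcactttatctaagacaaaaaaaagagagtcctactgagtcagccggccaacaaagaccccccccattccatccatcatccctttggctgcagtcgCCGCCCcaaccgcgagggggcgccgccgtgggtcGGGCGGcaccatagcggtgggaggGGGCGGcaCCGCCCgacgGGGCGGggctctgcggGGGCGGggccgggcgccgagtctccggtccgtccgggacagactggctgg
Plcb4: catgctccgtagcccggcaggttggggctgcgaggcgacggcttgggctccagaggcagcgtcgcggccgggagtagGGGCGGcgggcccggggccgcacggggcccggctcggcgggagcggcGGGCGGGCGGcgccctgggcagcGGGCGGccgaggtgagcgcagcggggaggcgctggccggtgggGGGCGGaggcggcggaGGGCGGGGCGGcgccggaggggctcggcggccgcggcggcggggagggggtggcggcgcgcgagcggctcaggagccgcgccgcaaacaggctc
At least 1 GC box stood in 28 of the 42 windows, against 35.7% of all 32851 RefSeq promoters of the mouse. It was in 12 of the 17 windows of genes that rose and in 10 of the 16 of genes that fell, so it did not set them apart. The cAMP response element TGACGTCA was in none of the 42 (1.79% of all promoters) and its shorter form TGACG in 11 (20.8% of all). Both strands were searched, and a match is a description of letters, not of a bound factor.

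Of the 11 RGS genes, 3 rose, 4 fell and 4 missed the threshold, and those that moved most were the extremes of all 40 genes. Rgs10, a small member of the R12 class that acts on Gαi, had 11.4, 17.0 and 24.8 CPM in verapamil libraries, against 6.60, 9.66 and 12.2 CPM in control libraries. It rose 1.75-fold (log2 fold change 0.81, SE 0.12, adjusted p = 4.56e-06), and 2 verapamil libraries, both of set 4, reached into the control range. Rgs19, of the RZ class and first found as a binder of Gαi3, had 15.1, 17.8 and 22.9 CPM in verapamil libraries, against 8.78, 10.8 and 13.3 CPM in control libraries. Here the groups did not overlap, and the level rose 1.63-fold (log2 fold change 0.71, SE 0.072, adjusted p = 1.86e-08). Rgs19 was higher at nearly the same size with the slopes, at 0.65 (adjusted p = 2.37e-06), and within the 3 verapamil libraries in the control range, at 0.66 (adjusted p = 4.34e-05). The Rgs19 value was smaller with the trend removed, at 0.35 (adjusted p = 0.00163). Rgs10 was 0.42 (adjusted p = 2.99e-05) with the trend removed, 0.29 (adjusted p = 0.0131) with the slopes and 0.33 (adjusted p = 0.0393) within the 3 libraries.

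The promoters of both genes are given for comparison with those of the phospholipases, again with GC boxes in capitals. In Rgs19 the capitals near the end mark an E-box, CACGTG, which starts at base 10 after the start site and was found in 5 of the 42 windows and 7.15% of all promoters. Rgs10 is read at chr7:128418123-128418422, minus strand, and Rgs19 at chr2:181693761-181694060, minus strand, which is 1 of its 3 windows.
Rgs10: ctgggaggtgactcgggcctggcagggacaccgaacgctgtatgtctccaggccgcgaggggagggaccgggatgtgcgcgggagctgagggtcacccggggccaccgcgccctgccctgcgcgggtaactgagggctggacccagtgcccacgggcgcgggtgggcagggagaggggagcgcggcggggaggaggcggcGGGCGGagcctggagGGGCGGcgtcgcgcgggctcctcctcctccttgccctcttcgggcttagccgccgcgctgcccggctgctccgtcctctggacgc
Rgs19: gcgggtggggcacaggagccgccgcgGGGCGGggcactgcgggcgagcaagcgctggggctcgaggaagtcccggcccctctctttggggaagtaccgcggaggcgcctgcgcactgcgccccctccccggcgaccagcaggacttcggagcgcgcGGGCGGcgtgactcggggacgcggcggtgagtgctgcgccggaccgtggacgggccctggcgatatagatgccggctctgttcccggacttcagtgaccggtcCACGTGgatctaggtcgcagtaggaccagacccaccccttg
Each window holds 2 GC boxes. None of the windows of the 40 genes held the ATF4 element TGATGCAA (0.895% of all promoters) or the sterol response element TCACCCCAC (0.551%).

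The R7 class acts on Gαi and Gαo, is stable only together with Gβ5, and is anchored to the membrane by R7 binding protein. Rgs9, best known from photoreceptors, was the most abundant RGS gene per length. Its share of the summed RGS level per kilobase was 29.5% to 34.4% in verapamil libraries, against 27.6% to 33.5% in control libraries. It had 89.8, 100.4 and 122 CPM in verapamil libraries, against 68.9, 78.7 and 85.3 CPM in control libraries with no overlap, and it rose (log2 fold change 0.37, SE 0.048, adjusted p = 6.2e-07), as did Gnb5 above. The Rgs9 value was smaller with the trend removed, at 0.19 (adjusted p = 0.00503). It was 0.30 (adjusted p = 4.84e-05) with the slopes and 0.34 (adjusted p = 0.000206) within the 3 libraries. Rgs11 went the other way, at 0.628, 1.30 and 3.23 CPM in verapamil libraries, against 1.68, 2.33 and 4.11 CPM in control libraries (log2 fold change -0.70, SE 0.24, adjusted p = 0.0143). The Rgs11 groups overlapped, counts were 13 to 132 per library, and the call was lost without set 3 (-0.64, adjusted p = 0.0664). The Rgs11 call was also lost with the slopes, at -0.17 (adjusted p = 0.599), and within the 3 libraries, at -0.018 (adjusted p = 0.968). Rgs7 had 22.1, 39.6 and 45.6 CPM in verapamil libraries, against 31.0, 32.6 and 37.0 CPM in control libraries and did not pass the test (0.19, adjusted p = 0.0859). It was called higher without set 3 (0.28, adjusted p = 0.0168), with the trend removed, at 0.29 (adjusted p = 0.000462), with the slopes, at 0.51 (adjusted p = 1.15e-08), and within the 3 verapamil libraries in the control range, at 0.43 (adjusted p = 1.2e-06). Rgs7bp, the anchor, was near 1 CPM and just missed the threshold (-0.38, adjusted p = 0.0538), which it passed by DESeq2, without set 4 (-0.51, adjusted p = 0.0275) and in the 20 numbered libraries, while its value was 0.34 (adjusted p = 0.151) with the trend removed. Of Gnb5, Rgs7, Rgs9, Rgs11 and Rgs7bp, 2 therefore rose, 1 fell and 2 missed the threshold.

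Rgs22, a large RGS gene known chiefly from testis, had the largest decrease of all 40 genes, at 0.675, 4.07 and 7.94 CPM in verapamil libraries, against 7.94, 9.32 and 12.1 CPM in control libraries (log2 fold change -1.28, SE 0.26, adjusted p = 0.00019). It lay below every control in 11 of 12 verapamil libraries and had 15 to 312 counts per library. Within the 3 verapamil libraries in the control range it stayed lower, at -0.46 (adjusted p = 0.00444). Rgs12 (-0.17, adjusted p = 0.00673) and Rgs3 (-0.16, adjusted p = 0.0252) fell slightly, at medians of 34.6 and 26.7 CPM in verapamil libraries and 37.4 and 30.1 CPM in control libraries. Both calls were lost without set 1 (Rgs12 -0.13, adjusted p = 0.065, and Rgs3 -0.13, adjusted p = 0.17), and that of Rgs3 also without set 4 (-0.14, adjusted p = 0.0547) and within the 3 libraries, at -0.13 (adjusted p = 0.116).

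Among the RGS genes that did not pass, Rgs2, which acts on Gαq, had 0.193, 1.28 and 2.15 CPM in verapamil libraries, against 0.827, 1.08 and 1.56 CPM in control libraries (0.056, adjusted p = 0.872) and as few as 4 counts in a library. Its SD was 0.691 CPM among verapamil libraries and 0.245 CPM among control libraries, and its sign differed between the sets, at 0.72, -0.68, -0.55 and 0.28 in sets 1 to 4. Rgs14 was as scarce (0.35, adjusted p = 0.0852). Rgs17, the other RZ gene of the table, stood at medians of 7.26 CPM in verapamil libraries and 7.96 CPM in control libraries (-0.19, adjusted p = 0.101). With the trend removed its sign turned and it was called higher, at 1.05 (adjusted p = 2.25e-05), whereas with experiment set as a block it was called lower (-0.19, adjusted p = 0.0343). Gnb1l, which encodes a WD-repeat protein outside the Gβ family, had medians of 5.70 CPM in both groups (-0.029, adjusted p = 0.845). The interval that its SE of 0.12 leaves is wide, and it was called lower with the slopes, at -0.46 (adjusted p = 0.00732), and within the 3 libraries, at -0.62 (adjusted p = 0.000991).

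**Figure D3:**
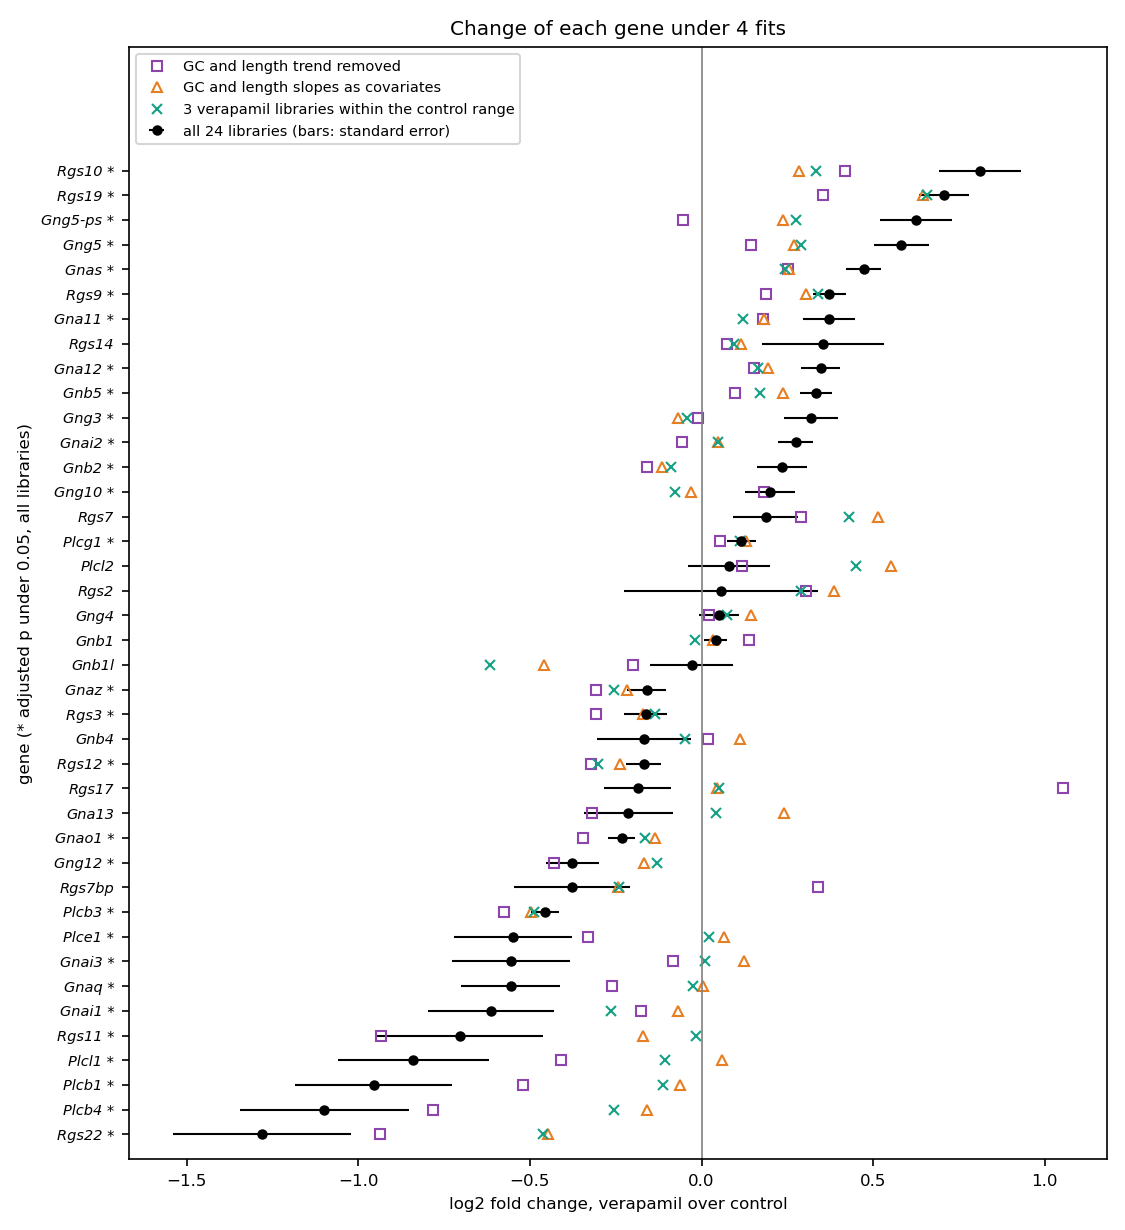
Log2 fold change of verapamil over control for each of the 40 genes, from all 24 libraries (black, with the standard error, and * where the adjusted p is under 0.05) and from the fits with the GC and length trend removed (squares), with GC and length slopes as covariates (triangles) and with the 3 verapamil libraries within the control range (crosses). In the last 2 fits Rgs19, Rgs9 and Plcb3 hold their place, whereas Gnaq and Plce1 move close to 0. With the trend removed Rgs19 moves to 0.35 and Rgs9 to 0.19, while Plcb3 lies at -0.57.

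Calls were then set beside 4 further fits. With counts summed per experiment set, 4 sums against 4, 11 of the 40 genes rose and 7 fell (24.4% and 17.3% of all genes). With the trend removed 11 rose and 15 fell (21.3% and 34.0%), with the slopes 14 and 9 (21.4% and 14.1%), and without the 9 verapamil libraries outside the control range 10 and 7 (14.8% and 14.8%). The genes called in the same direction in all 4 fits were Gna12, Gnas, Gng5, Rgs9, Rgs10 and Rgs19 among the 14 that rose, and Gnao1, Plcb3, Plcb4 and Rgs22 among the 15 that fell. Gnb2, Gnai1 and Gnai3 kept their direction with a call in none of them (Gnb2 and Gnai3 were called in the opposite direction in fits given above), and the remaining 16 did so in 1 to 3. The share of all genes that keep a call in all 4 fits was not counted, so nothing particular to these genes can be read from it. With the sums per set the calls of Gnai1, Gnai3, Gnaq, Gnaz, Gnb2, Gng10, Plcg1, Plcl1, Rgs3, Rgs11 and Rgs12 were lost.

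Transcript length and GC content ran with the direction of change. The 14 genes that rose had a median transcript length of 1710 bases and a median GC content of 54.0%, the 15 that fell 3888 bases and 47.1%, and the 11 others 3179 bases and 48.0%. Across the 40 genes Pearson's r of the log2 fold change was -0.62 with log2 length and 0.51 with GC content, and across all genes -0.37 and 0.49. Genes of 1 library share its depth and composition, so these values are a description. Gng5, Rgs10 and Rgs19 are short, while Plcb1, Plcl1 and Plce1 are long. Plcb3 and Rgs11 were low in verapamil libraries at a high GC content (57.1% and 56.6%). The treatment and this trend cannot be told apart in these libraries.

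**Figure D4:**
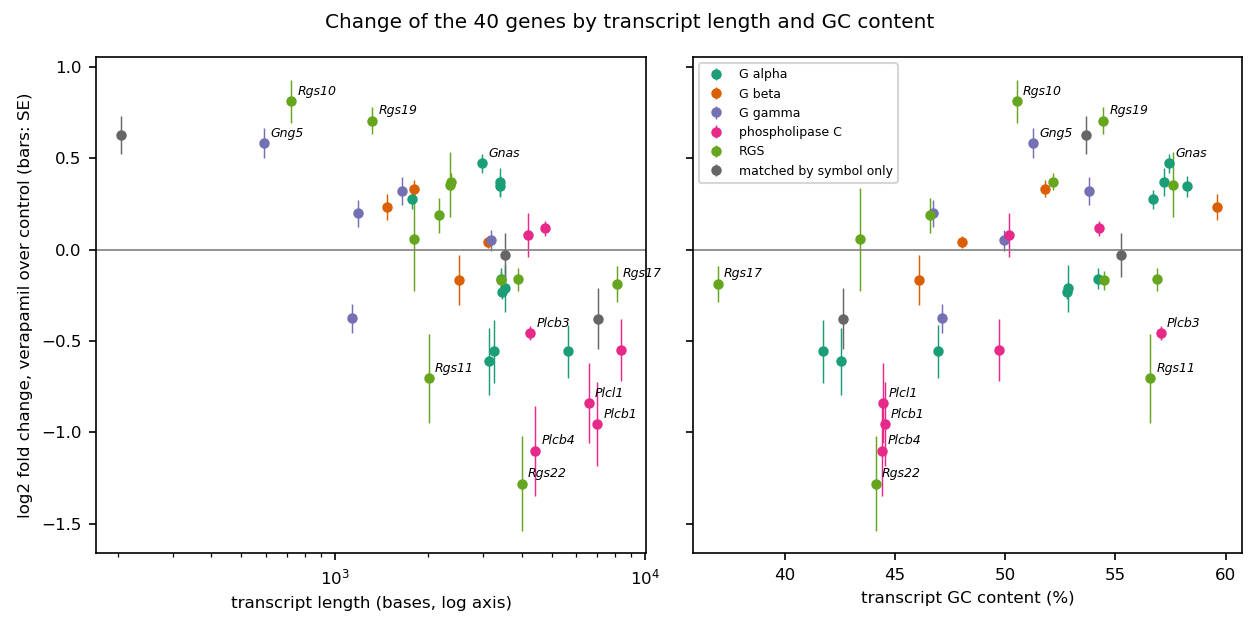
Log2 fold change of verapamil over control (bars are the SE) of the 40 genes against median transcript length (left, log axis) and transcript GC content (right), coloured by family. Short transcripts such as Gng5, Rgs10 and Rgs19 lie above 0 and most long or AT-rich ones such as Plcb1, Plcl1, Plcb4 and Rgs22 below it, while Plcb3 lies below at a GC content near that of Gnas.

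The size of the treatment effect differed between the experiment sets for 7 of the 40 genes (interaction of set and treatment, adjusted p under 0.05), against 9.72% of all genes. With the trend removed 4 remained (Gnaq, Plcb4, Plcb1 and Plcl2), against 7.14% of all genes. Plcb4 had log2 fold changes of -0.47, -2.06, -2.05 and -0.61 in sets 1 to 4, and Plcb1 had -0.45, -1.91, -1.66 and -0.45. The decrease was thus several times larger in sets 2 and 3. Gnaq followed the same order, at -0.17, -1.10, -1.05 and -0.19, as did Gnai3 at -0.11, -1.20, -1.18 and -0.12 and Rgs22 at -0.88, -2.23, -2.18 and -0.73. The sign differed between sets for Plcl2, at 0.50, -0.33, -0.33 and 0.30, and so did Rgs7, at 0.45, -0.096, -0.15 and 0.42. Plcb3 had -0.46, -0.40, -0.45 and -0.54 (interaction adjusted p = 0.741), Gnao1 -0.18, -0.25, -0.27 and -0.24 (adjusted p = 0.895) and Gnas 0.37, 0.55, 0.54 and 0.40 (adjusted p = 0.578), with the same sign in all 4 sets. The GC trend was strongest in the same sets, with a mean r of 0.20, 0.56, 0.57 and 0.16 in the verapamil libraries of sets 1 to 4, and its part in these differences was not tested beyond the fit with the trend removed.

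**Figure D5:**
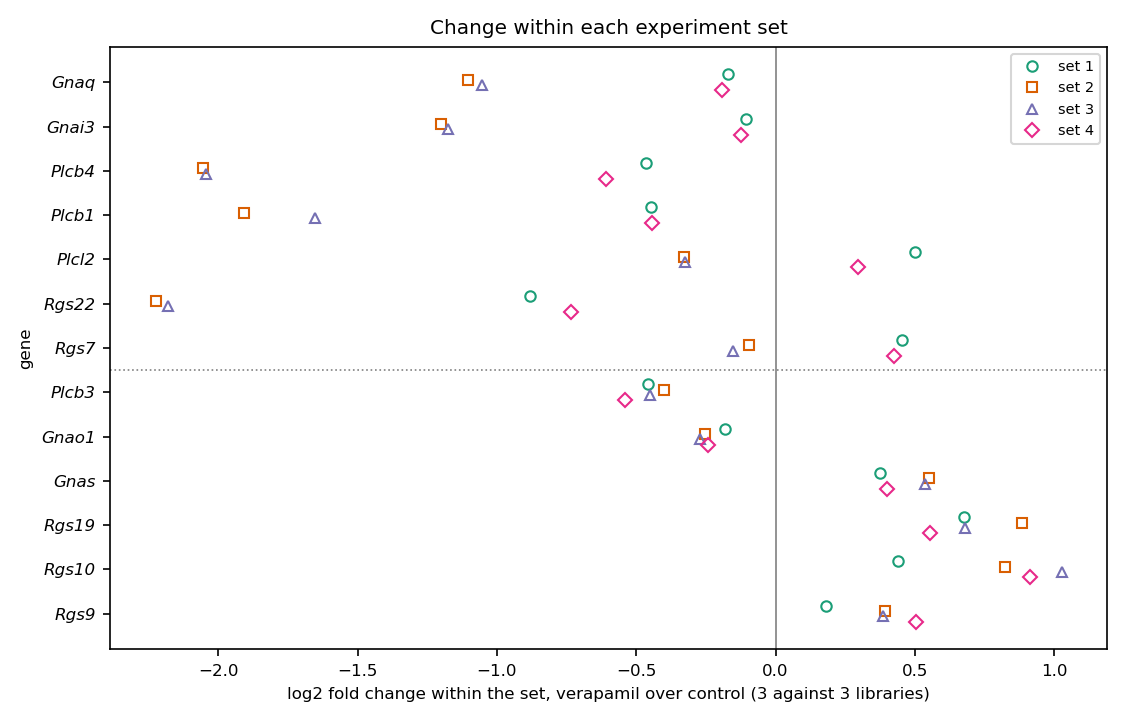
Log2 fold change within each of the 4 experiment sets (3 verapamil against 3 control libraries), for the 7 genes whose effect differed between sets (above the dotted line) and 6 genes called in all 4 further fits (below it). Sets 2 and 3 lie apart from sets 1 and 4 in the upper genes, and the 4 sets lie close together for Plcb3 and Gnao1.

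The rest of the pathway was counted from lists of genes outside the rule. The counts of the lists stand beside the shares of all genes tested, 31.2% higher and 31.6% lower, and beside 21.3% and 34.0% with the trend removed and 21.4% and 14.1% with the slopes. Of 12 G protein chaperones and accessory proteins in the table, 1 rose and 6 fell, with a median log2 fold change of -0.29. Ccdc88a, which encodes a non-receptor activator of Gαi, had 83.3 ± 67.7 CPM in verapamil libraries and 232 ± 19.1 CPM in control libraries (log2 fold change -1.47, adjusted p = 0.000437), and Kctd12, an auxiliary subunit of the GABAB receptor, had 15.2 ± 2.90 CPM in verapamil libraries and 35.3 ± 3.54 CPM in control libraries (log2 fold change -1.21, adjusted p = 1.04e-10), all as mean ± SD (n = 12 each). Gprin3 also fell, at a log2 fold change of -0.97 (adjusted p = 0.000138). With the slopes Gprin3 did not pass (-0.20, adjusted p = 0.0937), and the list's split was 4 higher and 4 lower. In that fit Ccdc88a stayed lower at a much smaller size (-0.33, adjusted p = 0.0164), and Kctd12 was at -0.92 (adjusted p = 1.73e-10).

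Of 7 receptor kinases and arrestins, 1 rose and 2 fell (list median 0.12 on the log2 scale). Grk3, a kinase that switches off activated receptors and is drawn to the membrane by Gβγ, had 25.6 ± 6.42 CPM in verapamil libraries and 56.6 ± 6.13 CPM in control libraries (log2 fold change -1.14, adjusted p = 2.56e-08), and its relative Grk2 had 629.9 ± 76.4 CPM in verapamil libraries and 538 ± 21.4 CPM in control libraries (log2 fold change 0.23, adjusted p = 0.000873). The increase of Grk2 was not called with the trend removed (0.030, adjusted p = 0.358) or with the slopes (0.049, adjusted p = 0.29). Of 9 other proteins with an RGS domain, 2 rose and 2 fell (list median -0.20), led by the sorting nexins Snx13 (-0.85, adjusted p = 0.00659) and Snx25 (-0.57, adjusted p = 0.000692), which fell, and the WNT scaffold Axin1 (0.27, adjusted p = 1.64e-05), which rose. With the slopes the calls of Snx13 (0.11, adjusted p = 0.231) and Snx25 (-0.069, adjusted p = 0.462) were lost and the list held 3 higher and 0 lower, and with the trend removed that of Axin1 was lost (0.060, adjusted p = 0.123). Of 2 further phospholipase C genes, Plch1 fell (-0.70, adjusted p = 0.00251) and 1 did not pass, and the Plch1 value was 0.021 with the slopes (adjusted p = 0.928).

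Downstream of phospholipase C, the IP3 arm had 4 of 10 genes higher and 3 lower, with a median log2 fold change of 0.19. Of the IP3 receptors, Itpr2 fell, at 2.20 ± 0.806 CPM in verapamil libraries and 4.58 ± 0.364 CPM in control libraries (log2 fold change -1.04, adjusted p = 6.86e-06), and Itpr3 rose, at 366 ± 63.1 CPM in verapamil libraries and 277 ± 14.0 CPM in control libraries (log2 fold change 0.40, adjusted p = 0.000149). Itpr1 had 125 ± 30.4 CPM in verapamil libraries and 161 ± 8.74 CPM in control libraries (log2 fold change -0.36, adjusted p = 0.00541), a call that was lost with the trend removed (-0.068, adjusted p = 0.123) and with the slopes (0.082, adjusted p = 0.118). Inpp5a, a phosphatase that removes IP3, had 165 ± 22.9 CPM in verapamil libraries and 114 ± 8.10 CPM in control libraries (log2 fold change 0.53, adjusted p = 3.31e-07), and Impa2, an inositol monophosphatase, rose by 0.52 (adjusted p = 4.73e-07). In the diacylglycerol arm 5 of 25 rose and 9 fell, with a median of -0.048. Dgki, a kinase that removes diacylglycerol, had 4.03 ± 1.30 CPM in verapamil libraries and 10.4 ± 1.51 CPM in control libraries (log2 fold change -1.37, adjusted p = 3.38e-08). Rasgrp3 (-0.87, adjusted p = 0.000373) and Dgkh (-0.69, adjusted p = 0.0158) also fell, calls that were lost with the slopes (-0.15, adjusted p = 0.312 for Rasgrp3 and 0.14, adjusted p = 0.455 for Dgkh). With the slopes this arm split into 8 higher and 4 lower.

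Of 15 genes that supply PIP2, the substrate of phospholipase C, 8 rose and 1 fell. Cdipt, which makes phosphatidylinositol, had 98.8 ± 12.5 CPM in verapamil libraries and 80.3 ± 3.74 CPM in control libraries (log2 fold change 0.30, adjusted p = 0.000121), and the PIP4-kinases Pip4k2b (0.27, adjusted p = 0.00963) and Pip4k2c (0.27, adjusted p = 0.000235) rose as well. The gene that fell was Pip4k2a (-0.19, adjusted p = 0.0328), of the same kinase family. Its call was lost with the trend removed (0.075, adjusted p = 0.289) and with the slopes (0.043, adjusted p = 0.725). The changes were small, with a list median of 0.12 on the log2 scale beside -0.0033 over all genes. The split was 7 higher and 1 lower with the slopes and 7 and 2 with the trend removed, where Cdipt turned to -0.17 (adjusted p = 0.0159). With the slopes Cdipt did not pass (0.064, adjusted p = 0.163).

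Of the 40 genes, 15 share exon bases with another annotated gene, 12 of them with a gene on the opposite strand (among them Gna12, Gnao1, Gnb5, Gng3, Plcb1, Plcb3, Plcg1 and Rgs11). No source used here gives the strand setting of the counting, so the counts of such genes are uncertain. The overlap of Plcb3 is 22 bases.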

How the data were processed

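RNA sequencing of MIN6 cells gave 12 verapamil and 12 control libraries, with the group taken from the sample labels. The deposited values are raw counts of reads for each gene. The submitters' processing notes name HTSeq 0.9.1, HISAT2 2.1.0, Trimmomatic 0.39 and bcl2fastq 2.20, and the builds GRCm38 and mm10. No source used here gives strand setting or annotation of the counting, and the sources differ on RNA input and library kit. The authors' own edgeR columns (average log2 CPM, p-value, adjusted p-value, its log10, fold change and log2 fold change) were not used. The experiment set was read from the first digit of each label's description, which no source spells out. The names of 4 columns (2 verapamil, 2 control) fit more than 1 sample, so they served as unnumbered replicates of a known group, in set 4 by elimination. The study's methods describe the sets as independent experiments with 3 replicates each. No source used here says that the replicates of a set came from separate cultures, so p-values rest on a spread that may in part be technical.

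Counts were filtered (filterByExpr, minimum count 10), TMM-normalized and tested with edgeR 4.0.16 in R 4.3.3 (quasi-likelihood, all 24 libraries, no covariates), with Benjamini-Hochberg adjustment over the 12306 genes tested and a threshold of 0.05. The SE is the size of the log2 fold change over the square root of F. Further fits used DESeq2 1.42.0, sums per set, set or replicate number as a block, single sets, each set left out, a GC and length trend removed per library as an offset, and its slopes as covariates. The fits without the 9 verapamil libraries outside the control range of that trend and without control replicate 9 were chosen after seeing the data. Libraries of a group differed beyond counting noise (chi-square per degree of freedom at least 5.73). Levels between genes are CPM per kilobase of exon union of GENCODE M21 on GRCm38, which also gave coordinates, lengths and GC content. The main fit and the removal of the trend were tested on simulated data. These had the spread of the control libraries, no differences between sets, and the same GC trend in every verapamil library. The real verapamil libraries spread more widely (common biological coefficient of variation 0.276, against 0.104 in control libraries). The error rate of the fits under such a spread was not tested. Summaries and plots used pandas 2.3.3, matplotlib 3.10.9 and numpy 2.4.6 under Python 3.11.15.

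Full values are given for the 10 called genes that rose most and the 10 that fell most, at 1 CPM or more on average, and for the most abundant gene per length of each family, and up to 3 called genes are named per pathway list. Itpr1, Itpr3 and Pip4k2a were added after their values were seen, as were further members described above. Members and lists were chosen with earlier results of these data known.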

Additional observations from a re-analysis of the deposited data

Results flagged for a closer look

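For 7 genes the treatment effect differed between the experiment sets by an interaction of set and treatment in edgeR's quasi-likelihood fit, adjusted over all genes: Gnaq (adjusted p = 0.0112), Plcb4 (0.0171), Gnai3 (0.0194), Plcl2 (0.028), Plcb1 (0.0328), Rgs22 (0.0328) and Rgs7 (0.0425). In 5 of them (Gnaq, Gnai3, Plcb4, Plcb1 and Rgs22) the level was lower in verapamil libraries in all 4 sets, most so in sets 2 and 3. In Plcl2 and Rgs7 it was higher in sets 1 and 4 and lower in sets 2 and 3.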

How the results depend on the processing

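With other size factors, DESeq2 or no filter, 14 genes rose and 15 or 16 fell, and without control replicate 9 the counts were 14 and 15. Of 760 values of single genes over 19 settings, 589 kept direction and call, 101 lost the call, 21 gained one and 22 changed sign with a call in at least 1 of both fits. A further 27 changed sign with a call in neither. Leaving out 1 experiment set at a time gave 11 to 14 genes higher and 11 to 14 lower. The replicate numbers do not pair the libraries (r of deviations -0.050 to 0.13 over 10 numbers). With replicate number as a replicate block the counts were 14 and 15, as for these 20 libraries without it, and with experiment set as a replicate block 15 and 16.

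The number of genes that fell was 7 with sums per set, 7 within set 1 alone, 9 with the slopes and 7 without the 9 libraries. Within set 4 alone, 3 libraries against 3, edgeR called 0 higher and 0 lower, with 6 and 4 at an unadjusted p under 0.05. The effect differed between sets for 4 genes with the trend removed. The cause of these differences was not tested.

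Of values called in at least 1 of both fits, signs turned with the slopes for Gnaq (0.0040), Gnai3 (0.12), Gna13 (0.24), Gnb2 (-0.12), Gng10 (-0.031), Gng3 (-0.069), Plcl1 (0.060) and Plce1 (0.065). With the trend removed they turned for Gnai2 (-0.057), Gnb2 (-0.16), Gng3 (-0.0099), Rgs17 (1.05) and Gng5-ps (-0.055). Without the 9 libraries they turned for Gnai3 (0.010), Gnb2 (-0.088), Gng10 (-0.078), Gng3 (-0.041) and Plce1 (0.021). Within single sets they turned for Gnaz (0.023, set 3), Gnb2 (-0.018, set 1), Plcl2 (-0.33, set 2) and Plcg1 (-0.0055, set 4). The median of all genes was -0.072 with the trend removed and 0.031 with the slopes. Depth limits Plce1, Rgs2, Rgs11, Rgs14, Rgs22 and Rgs7bp most, with under 20 counts in some libraries.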
